A study of Mus musculus with 127 samples.

Results

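The genes described are Cd69, Ccl3, Ccl4, Nfkbia, Ier3 and Il1b, 6 of the 23946 genes in a table of single mouse bone marrow cells. They were chosen by name, as genes that cells switch on when activated, because Cd69 and Ccl3 had been seen to differ strongly between the sorted gates. The levels that led to that choice are therefore given as a description and were not tested. All 6 genes were found in the table, and each was read in every cell.

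The cells came from wild-type C57BL/6 mice and were sorted from marrow that had first been enriched with CD117 beads, which hold cells bearing the Kit receptor. All 3 gates were labelled as CD11b+ members of a population called GMP-P. One gate was further labelled Ly6g high (46 cells), another Ly6g low (41 cells), and the third carried no Ly6g word and is called CD11b+ here (40 cells). CD11b is the integrin encoded by Itgam, and Ly6g is a surface protein of neutrophils and their precursors. Single cells were caught on Fluidigm C1 chips. Their cDNA came from SMARTer chemistry and was turned into Nextera XT libraries, which were read as 150 bp paired ends. No animal, age or culture was named. Each gate was therefore 1 sample, and differences between gates have no replicate check and no test. The CD11b+ cell names began with a number that the Ly6g names lacked; what it stands for is not stated, and any difference in handling between the gates cannot be told apart from the gate.

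NF-kB transcription factors are held in the cytoplasm by inhibitor proteins, of which the product of Nfkbia, IkB-alpha, is the best known. When a receptor for a microbial product or a cytokine is engaged, a kinase marks the inhibitor for destruction, the factor enters the nucleus, and it switches on Nfkbia itself together with cytokine and chemokine genes. In myeloid cells Ccl3 and Ccl4 (the chemokines MIP-1 alpha and MIP-1 beta) and Il1b (interleukin-1 beta) are classical products of such activation. Ier3 is an immediate early gene with roles in cell survival, and Cd69 encodes a C-type lectin that appears early on activated leukocytes and holds back the receptor S1pr1, which cells use to leave tissues.

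Promoter sequences are shown because Nfkbia and Ier3 are known NF-kB targets and their upstream bases can be read directly. RefSeq promoters of the build GRCm38.p6 matched 4 of the 6 genes (Ccl3, Nfkbia, Ier3 and Il1b), and the 250 bases before the start are printed for 3 of them, 5′ to 3′ on the strand of the gene. The deposited values were made on another build, mm9. Nfkbia lay at chr12:55492648-55492897 on the minus strand, Ier3 at chr17:35821463-35821712 on the plus strand and Ccl3 at chr11:83649379-83649628 on the minus strand. Capitals mark matches, on either strand, to the NF-kB consensus of 10 letters or to the shorter GGNNTTTCC; the letters were chosen after the sequences had been seen, and the 2 motifs can overlap.
Nfkbia: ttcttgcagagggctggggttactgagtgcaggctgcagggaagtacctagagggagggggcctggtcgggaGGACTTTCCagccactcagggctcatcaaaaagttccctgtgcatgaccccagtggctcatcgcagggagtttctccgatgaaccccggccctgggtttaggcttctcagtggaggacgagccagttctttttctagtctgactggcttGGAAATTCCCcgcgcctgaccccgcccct
Ier3: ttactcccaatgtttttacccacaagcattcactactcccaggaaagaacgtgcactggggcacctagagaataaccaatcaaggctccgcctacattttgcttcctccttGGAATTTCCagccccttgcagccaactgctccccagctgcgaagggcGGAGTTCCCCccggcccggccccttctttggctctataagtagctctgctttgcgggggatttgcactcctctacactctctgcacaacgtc
Ccl3: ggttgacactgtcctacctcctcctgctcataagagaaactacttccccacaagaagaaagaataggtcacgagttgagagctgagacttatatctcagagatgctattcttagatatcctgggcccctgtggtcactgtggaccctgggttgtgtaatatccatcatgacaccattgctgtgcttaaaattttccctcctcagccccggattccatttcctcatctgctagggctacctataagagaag
The Nfkbia window held GGACTTTCC from 178 to 170 bases before the start and GGAAATTCCC from 29 to 20 bases before it, the second matching both motifs. In the Ier3 window GGAATTTCC lay 139 to 131 bases and GGAGTTCCCC 92 to 83 bases before the start. Neither motif was found in the Ccl3 window or in that of Il1b. Of 32851 promoters of this length, 3.9% held the NF-kB consensus and 4.93% held GGNNTTTCC. A match of letters is a description and not a measured binding site.

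Levels are in TPM, a share of all transcripts in a cell scaled by gene length, so that genes can be set side by side. A gene was called detected in a cell at 1 TPM or more. Cells held a median of 2464.5 detected genes in CD11b+ (821 to 5173), 2521 in Ly6g low (1159 to 5058) and 1695 in Ly6g high (966 to 4679). Mean Ly6g was 353 TPM in Ly6g low and 936 TPM in Ly6g high, in the order of those labels, and 171 TPM in CD11b+ (86.2 TPM without Myelo-4 cell 17). In CD11b+, Ly6g low and Ly6g high, mean Itgam was 66.9, 112 and 228 TPM, and mean Kit was 63.5, 20 and 2.56 TPM. Itgam, the gene for CD11b, was thus lowest in the gate named CD11b+, where 27 of 40 cells held it, against 37 of 41 and 41 of 46. The deposited classes put 22 CD11b+ cells in the 4 Myelo classes and 18 in other classes, against 37 and 4 in Ly6g low and 43 and 3 in Ly6g high. Some cells went against their class name by their markers. The single cell classed MDP (Ly6g low cell 40) summed to 223539 TPM over a list of basophil and mast cell markers. CD11b+ cell 46, classed Myelo-4, summed to 13166 TPM of monocyte markers and 265 TPM of specific granule genes, where the median of the 3 CD11b+ Myelo-4 cells was 179782 TPM of the latter.

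Cd69 and Ccl3 stood highest in CD11b+, lower in Ly6g low and at or near 0 in Ly6g high, whereas Nfkbia was present in most cells of CD11b+ and Ly6g low and in 23 of the 46 Ly6g high cells. Ier3 was carried by similar shares of CD11b+ and Ly6g low cells. Ccl4 was detected in 8 cells in all and Il1b in 2. The comparison used mean TPM per gate plus 1, as a log2 ratio, and covered every gene detected in 25% or more of the cells in 1 gate of the pair or in both. Of the 3 genes of the set that passed this filter for CD11b+ over Ly6g high, 2 (Cd69 and Ccl3) were at least 2-fold higher and none lower, where 44.5% of all 4447 genes were higher, 6.93% were lower and 51.4% were apart either way. For CD11b+ over Ly6g low, 3 of 4 (Cd69, Ccl3 and Ier3) were at least 2-fold higher, and none lower, against 30.3% higher, 7.83% lower and 38.1% either way among 4774 genes. For Ly6g high over Ly6g low, 1 of 2 (Ier3) was at least 2-fold lower and none higher, against 23.7% lower, 7.96% higher and 31.7% either way among 3983 genes. With the highest cell of each gate left out, Nfkbia joined the genes 2-fold higher in CD11b+ than in Ly6g high, at 1.02. Cd69 and Ccl3 passed the filter only through CD11b+, which by itself favours a higher value there. For Ly6g high over Ly6g low, Ier3 passed only through Ly6g low, which by itself favours a lower value in Ly6g high. Since these gates chose the genes, nothing is read from these counts. The 3 comparisons share gates and are not independent of each other. All genes were shifted too: their median log2 ratio was 0.83, 0.48 and -0.29 in the 3 comparisons, and 0.26, 0.04 and -0.14 when TPM were rescaled without granule genes, which left each count of genes past 2-fold as it was. The ratios of genes that did not pass the filter rest on few cells and are given only with their cells.

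**Figure D1:**
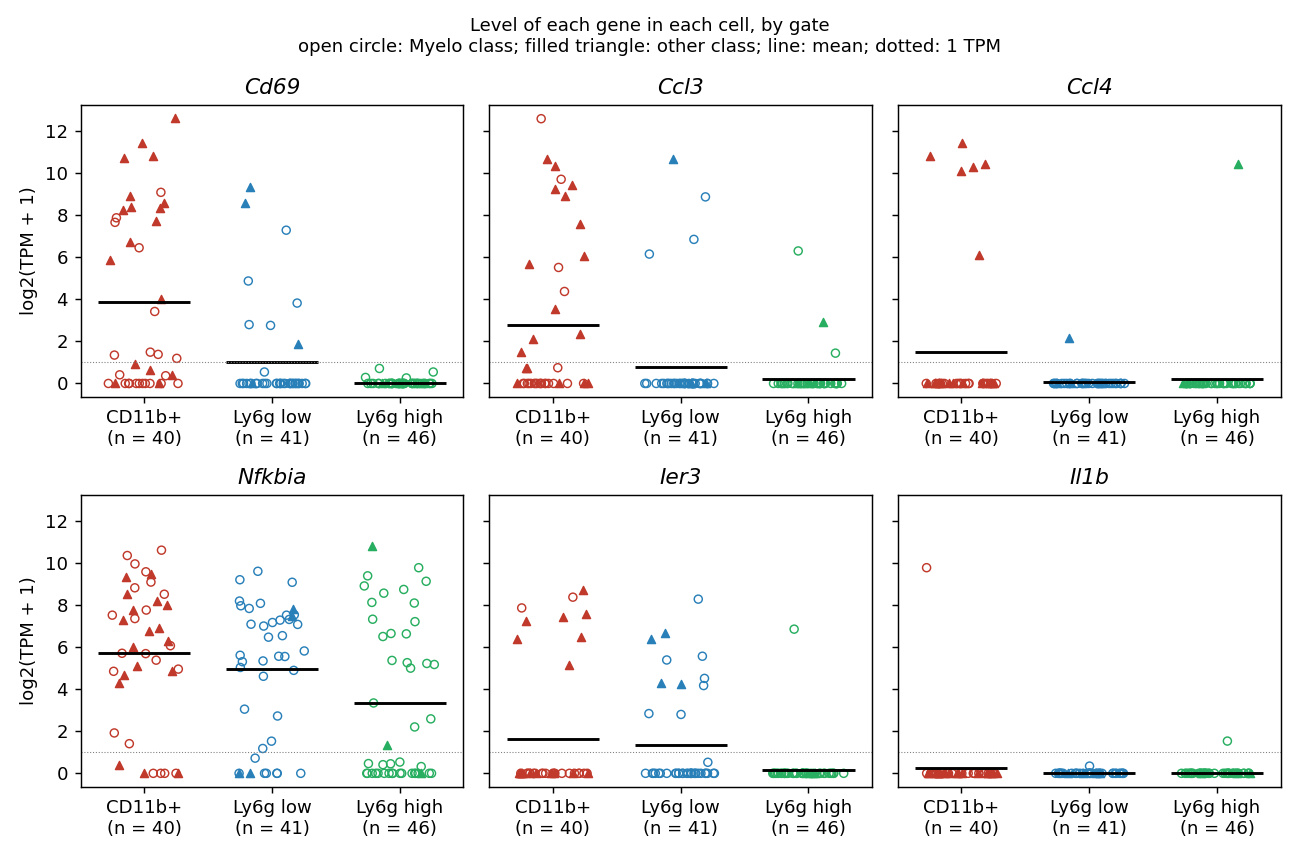
Level of each of the 6 genes in each cell as log2(TPM + 1) (vertical axis), by gate (horizontal axis). Open circles are cells of the Myelo classes, filled triangles cells of other classes, black lines the mean of the log2 values and the dotted line 1 TPM. Cd69 reaches 1 TPM in 22 of 40 CD11b+ cells and in 0 of 46 Ly6g high cells, while Nfkbia reaches 1576 TPM in CD11b+, 785 TPM in Ly6g low and 1818 TPM in Ly6g high.

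Cd69, the early activation receptor, ranged from 0 to 6374 TPM in CD11b+ cells, with a median of 1.58 TPM and a mean of 401 TPM (log2 mean 3.88 ± 4.25, SD over 40 cells). It was detected in 22 of these cells, or 55% (exact binomial 95% interval 38.5 to 70.7%, which here and below covers counting error only). Levels within the gate were far apart, with 14 cells at 100 TPM or more and 13 listed at exactly 0. In Ly6g low, 8 of 41 cells carried it (19.5%, 8.82 to 34.9%), the highest at 651 TPM, and the gate mean was 30.3 TPM. In Ly6g high none of 46 cells reached 1 TPM, which allows a share of up to 6.52%, and the highest cell stood at 0.64 TPM. The ranges of the CD11b+ and Ly6g low cells thus overlapped from 0 to 651 TPM, and the Ly6g high cells lay at the bottom of both. The log2 ratio was 8.60 for CD11b+ over Ly6g high and 3.68 for CD11b+ over Ly6g low. The size of the first depended on the measure. It was 11.6 with 0.1 TPM added, 5.35 with 10 TPM added and 3.84 as a difference of mean log2 values. CD11b+ cell 39, classed HSCP-2, gave 39.8% of the Cd69 of its gate, and without it the mean was 247 TPM. Cell 6 of Ly6g low, classed Gran-2, gave 52.3% of that gate, whose mean was 14.8 TPM otherwise. With the highest cell of each gate left out, the ratios were 7.93 and 3.97.

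Cd69 was spread over many classes of the CD11b+ gate. The classes may have been drawn from the same expression values, so differences between classes are given as description. Of the 18 CD11b+ cells outside the Myelo classes 13 carried it (72.2%, 46.5 to 90.3%), at a mean of 830 TPM, and of the 22 Myelo cells 9 did (40.9%, 20.7 to 63.6%), at a mean of 49.5 TPM. The highest values after cell 39 were 2792 TPM in a Gran-1 cell, 1844 TPM in an HSCP-2 cell and 1708 TPM in the only Multi-Lin cell. Over all gates none of the 16 Myelo-4 cells carried Cd69, and 10 of 72 Myelo-2 cells did. Cell 39 also held 4765 TPM of Cpa3, a mast cell protease gene, and 1460 TPM summed over T and NK cell markers. In the CD11b+ gate Fcer1a, Il4, Cd200r3 and Cma1 of the basophil and mast cell list were at 0, and the summed list ranged from 0 to 4767 TPM with a median of 21 TPM. The part of such cells in the Cd69 level was not tested; without the HSCP-2, Eryth, Multi-Lin and MDP cells the ratios were 7.33 and 2.38.

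Ccl3 is a chemokine that draws monocytes and neutrophils through receptors such as Ccr1. It ranged from 0 to 6221 TPM in CD11b+ cells, with a median of 0 and a mean of 305 TPM (log2 mean 2.80 ± 3.98, SD over 40 cells). It was detected in 16 of 40 CD11b+ cells (40%, 24.9 to 56.7%), in 4 of 41 Ly6g low cells (9.76%, 2.72 to 23.1%) and in 3 of 46 Ly6g high cells (6.52%, 1.37 to 17.9%). The means of the last 2 gates were 55.6 and 1.88 TPM, with highest cells at 1623 and 78.3 TPM. All 3 gates overlapped, since most cells of each were at 0, and the intervals of the shares in Ly6g low and Ly6g high overlapped too. The log2 ratio was 6.73 for CD11b+ over Ly6g high and 2.44 for CD11b+ over Ly6g low. The first was 7.27 with 0.1 TPM added, 4.73 with 10 TPM added and 2.57 as a difference of mean log2 values.

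Single cells set the Ccl3 means in every gate. CD11b+ cell 46, the Myelo-4 cell with monocyte markers described above, gave 51% of its gate, and the mean without it was 153 TPM. That cell also had the highest level of Ccl2 (6044 TPM), Tnf (1921 TPM), Atf3 (2677 TPM) and Tlr2 (257 TPM) in its gate and 1001 TPM of Nfkbia, while Cd69, Ccl4, Ier3 and Il1b were listed at 0 in it; these companions were named after their values had been seen. The Mono cell of Ly6g low (cell 34) gave 71.2% of its gate, which had a mean of 16.4 TPM without it. In Ly6g high, Myelo-2 cell 44 gave 90.4%, and without it the mean was 0.185 TPM. Leaving out the highest cell of each gate gave ratios of 7.03 and 3.15.

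Ccl4, the neighbour and close relative of Ccl3, was far rarer. The median of the CD11b+ cells that held it was 1343 TPM, against 128 TPM for Ccl3, while the highest cells stood at 2819 and 6221 TPM. In CD11b+ it was detected in 6 of 40 cells (15%, 5.71 to 29.8%), at 2819, 1821, 1409, 1276, 1113 and 68.9 TPM. The 6 cells were classed HSCP-2, Mono, Mono, Gran-2, Gran-1 and Mono, in that order. The gate mean was 213 TPM, of which HSCP-2 cell 44 gave 33.1%, and 146 TPM without that cell. Ly6g low held it in 1 cell at 3.49 TPM and Ly6g high in 1 cell at 1388 TPM, HSCP-2 cell 85, which made up all of the Ccl4 of its gate. Cell 85 also held 2792 TPM of megakaryocyte and platelet markers (Pf4 1708 TPM), and CD11b+ cell 44 held 3648 TPM of basophil and mast cell markers (Hdc 1587, Ms4a2 1160 and Cpa3 564 TPM). The part of such cells in the Ccl4 level was not tested. None of the 72 Myelo-2, 16 Myelo-4, 9 Myelo-3 or 5 Myelo-1 cells of any gate held Ccl4. Because 15% of cells is below the filter, no fold was called; the log2 ratio was 2.78 over Ly6g high, which had no Ccl4 left without cell 85. The receptor gene Ccr1 averaged 18.6, 22.9 and 7.76 TPM in CD11b+, Ly6g low and Ly6g high and was detected in 6, 8 and 10 cells. Without the highest cell of each gate its means were 4.22, 16.9 and 2.24 TPM.

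Nfkbia, which encodes the NF-kB inhibitor IkB-alpha, was the most widely detected of the set, in 88 cells. CD11b+ cells ranged from 0 to 1576 TPM with a median of 71.7 and a mean of 250 TPM (log2 mean 5.74 ± 3.35, SD over 40 cells). Ly6g low cells ranged from 0 to 785 TPM with a median of 48.2 and a mean of 126 TPM (4.96 ± 3.20, 41 cells), and Ly6g high cells from 0 to 1818 TPM with a median of 1.005 and a mean of 143 TPM (3.34 ± 3.74, 46 cells). The gates overlapped from 0 to 785 TPM. Detection was 82.5% (67.2 to 92.7%) in CD11b+, 78% (62.4 to 89.4%) in Ly6g low and 50% (34.9 to 65.1%) in Ly6g high. The intervals of the first 2 gates overlapped, and so did those of the last 2. The log2 ratio stayed within 2-fold in all comparisons, at 0.80 for CD11b+ over Ly6g high, 0.99 for CD11b+ over Ly6g low and 0.19 for Ly6g high over Ly6g low. The measure chosen mattered for Nfkbia too. As a difference of mean log2 values, CD11b+ over Ly6g high was 2.40 and Ly6g high over Ly6g low was -1.62. In Ly6g high, cell 85, the same cell that held Ccl4, gave 27.6% of the Nfkbia, and without it the mean was 106 TPM.

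Ier3, the immediate early survival gene, was carried by 9 of 40 CD11b+ cells (22.5%, 10.8 to 38.5%) and by 11 of 41 Ly6g low cells (26.8%, 14.2 to 42.9%). The shares overlapped, but the positive cells differed in level: their median was 170 TPM in CD11b+ (34.3 to 417 TPM) and 21.9 TPM in Ly6g low (5.98 to 312 TPM). Gate means were 42.5 and 16.4 TPM, a log2 ratio of 1.32 (0.99, just below 2-fold, when 10 TPM were added to the means), and the difference of mean log2 values was 0.27. HSCP-2 cell 43 was the highest in CD11b+, and the others averaged 32.9 TPM. Myelo-1 cell 42 gave 46.5% of Ly6g low, whose other cells averaged 9.0 TPM. In Ly6g high 1 of 46 cells carried it (2.17%, 0.055 to 11.5%), a Myelo-4 cell at 115 TPM, and that interval lay below the one of Ly6g low. Ly6g high stood at -2.31 relative to Ly6g low on the log2 ratio scale.

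Il1b was all but silent. A single CD11b+ cell held 884 TPM (cell 13, Myelo-3), a single Ly6g high cell held 1.90 TPM, and in Ly6g low no cell reached 1 TPM, which allows a share of up to 7.32%. Cell 13 carried Cd69 at 1.29 TPM and none of Ccl3, Ccl4, Nfkbia or Ier3. It was also the highest CD11b+ cell for Tlr4, the receptor for bacterial lipopolysaccharide, at 4812 TPM, and held 4012 TPM of Cxcr2, a chemokine receptor of mature neutrophils. Il1rn, the natural antagonist of interleukin-1, was found in 4 cells per gate and had means of 9.28, 13.4 and 10.9 TPM in CD11b+, Ly6g low and Ly6g high. Those means rested on single cells and were 2.29, 6.01 and 0.734 TPM without the highest cell of each gate.

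Cells were then counted by how many of the 6 genes they held. At least 3 of them were detected in 13 of 40 CD11b+ cells (32.5%, 18.6 to 49.1%), in 6 of 41 Ly6g low cells (14.6%, 5.57 to 29.2%) and in 0 of 46 Ly6g high cells, which allows up to 6.52%. The intervals of CD11b+ and Ly6g low overlapped. No gene of the set was detected in 5 CD11b+, 5 Ly6g low and 20 Ly6g high cells. Exactly 1 gene was detected in 8, 23 and 23 cells. In CD11b+, 3 cells carried 5 genes, all but Il1b: HSCP-2 cell 44 and Mono cells 10 and 47. Cell 47 held 325 TPM of Cd69, 1316 of Ccl3, 1821 of Ccl4, 261 of Nfkbia and 170 of Ier3, and cell 10 held 477, 701, 1409, 715 and 34.3 TPM in the same order. In cell 44 the values were 1844, 50.1, 2819, 217 and 88.6 TPM. No cell carried all 6.

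**Figure D2:**
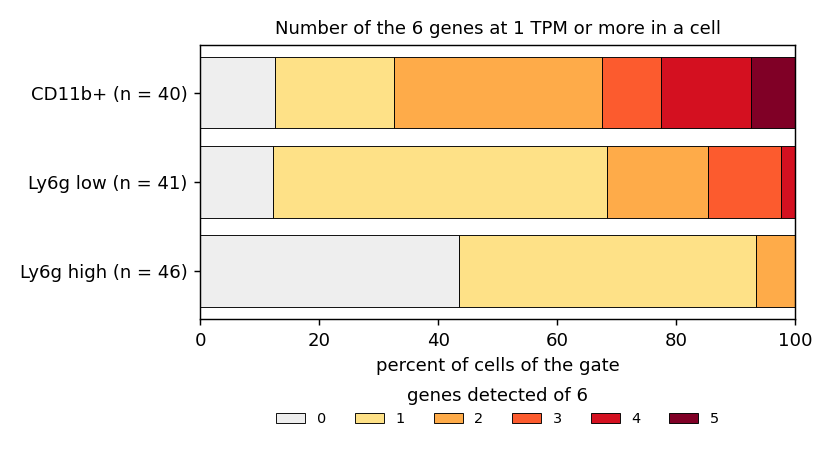
Share of the cells of each gate (horizontal axis, percent) that held 0, 1, 2, 3, 4 or 5 of the 6 genes at 1 TPM or more. The part with 3 or more genes makes up 32.5% of CD11b+ and 14.6% of Ly6g low cells and is missing in Ly6g high.

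All 6 CD11b+ cells with Ccl4 also carried Ccl3, Cd69 and Nfkbia, and 3 of them carried Ier3. They were 37.5% of the 16 Ccl3 cells and 27.3% of the 22 Cd69 cells of that gate. All 9 CD11b+ cells with Ier3 carried Nfkbia, which 33 of the 40 cells of the gate held anyway. Of these 9 cells, 7 carried Cd69 and 7 carried Ccl3. In the same gate 12 cells carried both Cd69 and Ccl3, so that 4 of the 16 Ccl3 cells lacked Cd69. The only CD11b+ cell with Il1b held Cd69 and no other gene of the set. Over all gates, 13 cells carried both Cd69 and Ccl3, which was 43.3% of the 30 Cd69 cells and 56.5% of the 23 Ccl3 cells. The 2 Ccl4 cells outside CD11b+ did not carry Ccl3. Across all cells of the 3 gates the Pearson correlation of log2(TPM + 1) was 0.48 for Cd69 with Ccl3, 0.48 for Ccl3 with Ccl4, 0.42 for Cd69 with Ccl4 and 0.41 for Cd69 with Ier3. Nfkbia correlated at 0.10 to 0.25 with Cd69, Ccl3, Ccl4 and Ier3. These values are descriptive, since the cells came from 3 gates that differ in level, and all genes share the depth of a cell.

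**Figure D3:**
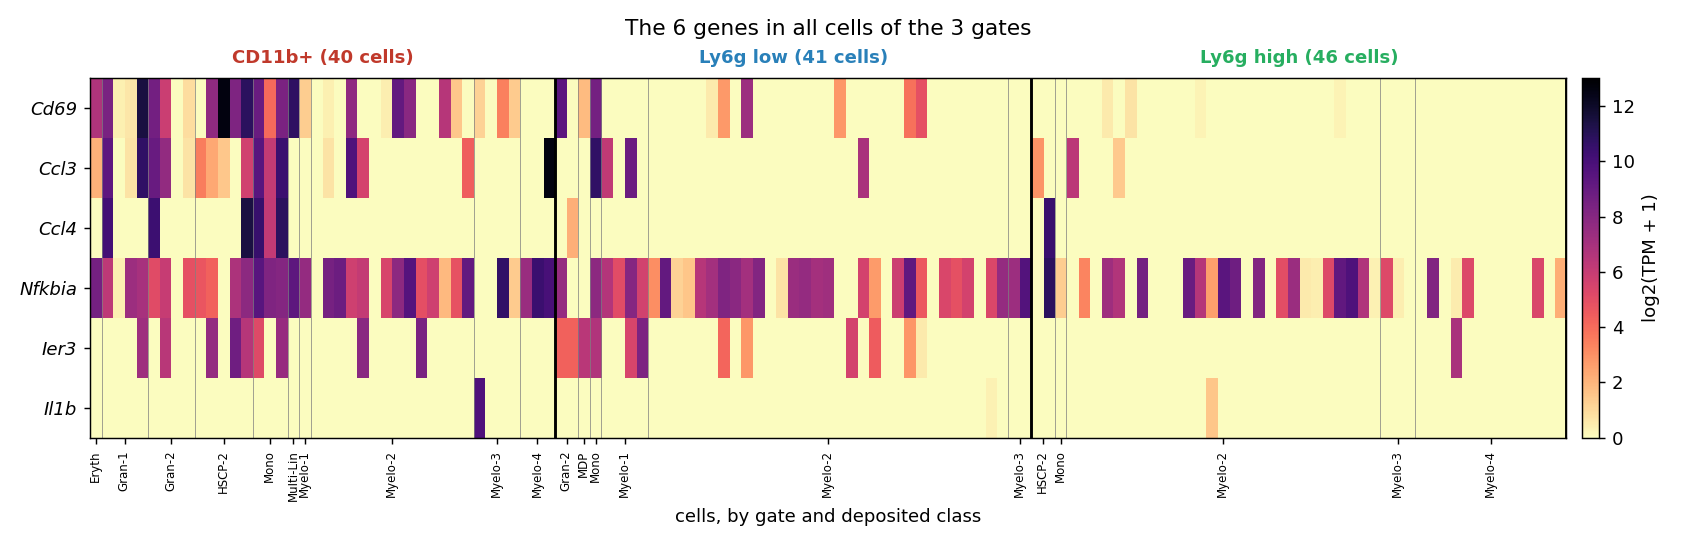
The 6 genes (rows) in every cell (columns), ordered by gate and deposited class, coloured by log2(TPM + 1). Of the 13 CD11b+ cells with at least 3 genes, 11 lie in the non-Myelo classes at the left of that block, the 6 such Ly6g low cells are spread over Myelo and other classes, and the Ly6g high block shows scattered Nfkbia and few other values.

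The cells with at least 3 of the genes were 5 Myelo-2, 4 Mono, 3 Gran-2, 3 HSCP-2, 2 Gran-1, 1 Eryth and 1 Myelo-1. All 3 CD11b+ Mono cells carried 4 or 5 genes, and the Mono cell of Ly6g low carried 4 (Cd69 381, Ccl3 1623, Nfkbia 223 and Ier3 101 TPM). The Mono cell of Ly6g high carried Nfkbia alone, at 1.56 TPM, with 4679 detected genes and 10799 TPM of monocyte markers. Gran-1 and Gran-2 cells were divided: CD11b+ cells 9, 48, 3 and 4 carried 4 genes each, and cells 26, 25, 42 and 27 of the same classes carried none or Nfkbia only. Among CD11b+ cells, those with Cd69 had a median of 4557 TPM over 8 primary granule genes (such as Mpo and Elane, made by early granulocyte precursors), against 498 TPM in cells without it. For Ccl3 the medians were 26669 and 680 TPM. Specific granule genes (such as Camp and Ltf, made later) ran the other way, with medians of 1183 TPM with Cd69 and 173837 TPM without it, and 591 TPM with Ccl3 and 178972 TPM without it. Nfkbia differed from these 2 genes in the specific granule genes only. In the same gate its specific granule medians were 152563 TPM in the 33 cells with it and 15709 TPM in the 7 without it. Its primary granule medians were 1767 and 88.8 TPM, higher in cells with it, as for Cd69 and Ccl3. The part of maturation stage in the levels of these genes was not tested.

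Cells with more detected genes carried more of the set. The 19 cells with at least 3 genes had 2234 to 5173 detected genes (median 3912), and 15 of them had 3000 or more. Within CD11b+ the non-Myelo cells had a median of 3729.5 detected genes and the Myelo cells 1902. The Pearson correlation of log2(TPM + 1) with detected genes over all cells was 0.44 for Cd69, 0.43 for Ccl3, 0.37 for Ccl4, 0.45 for Ier3, 0.23 for Nfkbia and -0.10 for Il1b. Within a common band of 1500 to 3000 detected genes, Cd69 was detected in 8 of 21 CD11b+, 2 of 25 Ly6g low and 0 of 29 Ly6g high cells, and Ccl3 in 6, 1 and 3 of them. Ier3 was detected in 3, 3 and 0 cells of the band and Nfkbia in 17, 19 and 17. The share with at least 3 genes was 14.3%, 4% and 0. Mean Cd69 in the band was 369, 6.49 and 0.0524 TPM in CD11b+, Ly6g low and Ly6g high. The CD11b+ and Ly6g low means rested mostly on single cells. HSCP-2 cell 39 held 82.2% of the Cd69 of the CD11b+ band cells, whose mean was 69.1 TPM when that cell was dropped. For the Ly6g low band cells, 96.3% came from Myelo-2 cell 12, and the others averaged 0.249 TPM. The band held no CD11b+ cell with Ccl4.

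**Figure D4:**
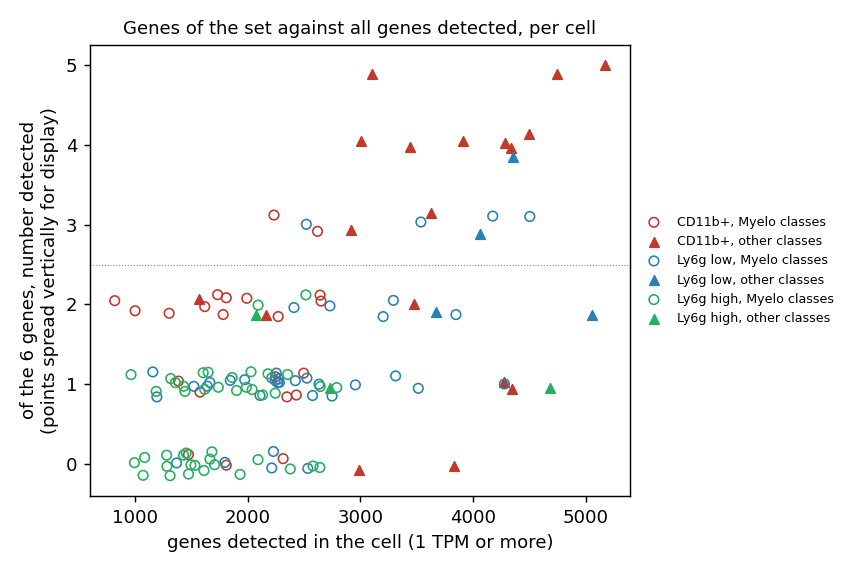
Number of the 6 genes detected in a cell (vertical axis) against all genes detected in that cell (horizontal axis), by gate (colour) and class (open circles Myelo, filled triangles other). All cells with 4 or 5 genes have over 3000 detected genes, and no Ly6g high cell lies above the dotted line, which parts cells with 3 or more genes from the rest.

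Myelo-2 was the only class with over 5 cells in every gate (14 CD11b+, 31 Ly6g low and 27 Ly6g high). In Myelo-2 cells Cd69 was detected in 5 of 14, 5 of 31 and 0 of 27 cells, with means of 76.8, 6.77 and 0.0563 TPM. Cell 18 gave 50.9% of the CD11b+ sum and cell 12 gave 74.4% of the Ly6g low sum. Without them these means were 40.6 and 1.79 TPM. Here too Cd69 passed the filter only through CD11b+, which by itself favours a higher value there. The log2 ratios were 6.20 for CD11b+ over Ly6g high, where 23.2% of 3613 genes were at least 2-fold higher, 19.8% lower and 43% either way. They were 3.32 for CD11b+ over Ly6g low, where 17% of 4063 genes were higher, 23.4% lower and 40.5% either way. For Ly6g high over Ly6g low, none of the set was called in Myelo-2 cells, where 13.1% of 3911 genes were higher, 19.8% lower and 32.9% either way. Ccl3 was found in 3 of 14, 1 of 31 and 2 of 27 Myelo-2 cells. Its mean of 64.8 TPM in CD11b+ rested on cell 7 at 842 TPM and was 5.03 TPM without it. The Ly6g low and Ly6g high means of 3.71 and 2.96 TPM rested on single cells too. Without the highest cell of each they were 0 and 0.0662 TPM. Ier3 was carried by 2 of 14, 5 of 31 and 0 of 27 cells, at means of 40.5 and 3.17 TPM in the first 2 gates. Nfkbia means in Myelo-2 cells were 188, 109 and 162 TPM, with detection in 12, 24 and 16 cells. The Myelo-2 cells had medians of 2259, 2282 and 2030 detected genes in the 3 gates. They were not alike in other genes: summed over the 8 primary granule genes, their medians were 680, 259 and 2.89 TPM. Of these genes 6 passed for CD11b+ over Ly6g high, and all 6 were higher. Over Ly6g low 3 of 6 were lower and none higher. The part of maturation stage in the Myelo-2 ratios was not tested.

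**Figure D5:**
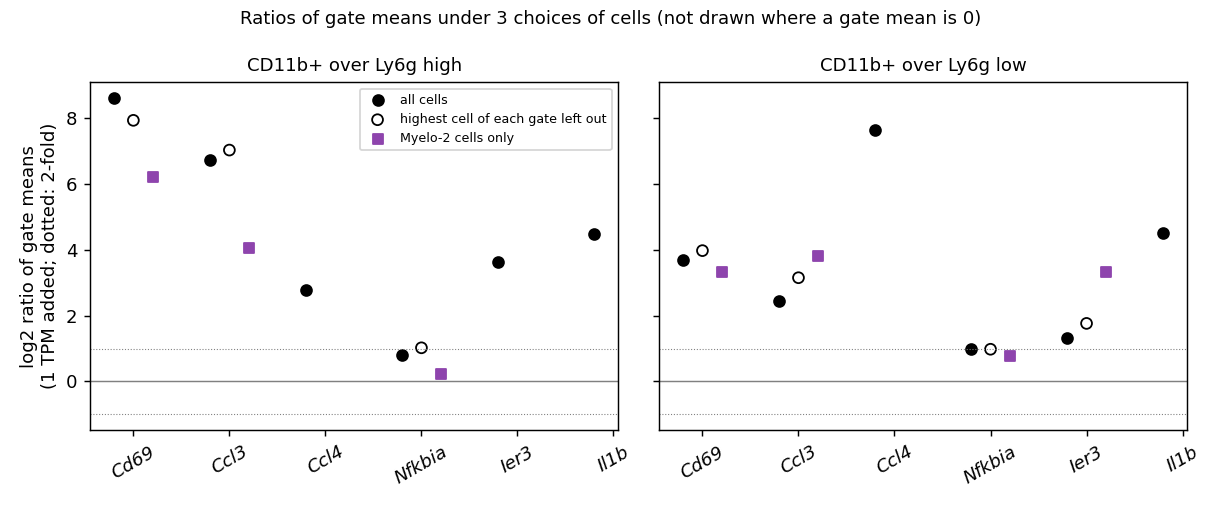
Log2 ratio of gate mean TPM after adding 1 TPM (vertical axis) for each gene, CD11b+ over Ly6g high (left) and over Ly6g low (right), with all cells, without the highest cell of each gate, and in Myelo-2 cells alone; dotted lines mark 2-fold, and no point is drawn where a gate mean is 0. Cd69 lies between 6.20 and 8.60 on the left and between 3.32 and 3.97 on the right, and Nfkbia stays near 2-fold or below.

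The other genes of the pathway were read from lists that hold some of the 6 genes themselves (Nfkbia among the inhibitors and targets, Ccl3 among the ligands). Of 10 genes for NF-kB subunits and kinases 5 passed the filter for CD11b+ over Ly6g high, 3 of them at least 2-fold higher and 1 lower, with a median log2 ratio of 1.21; over all genes 44.5% were higher and the median was 0.83. Rela, the p65 subunit, had means of 67.0 and 15.8 TPM in CD11b+ and Ly6g high, Nfkb1 28.4 and 11.7 TPM, and the kinase gene Ikbkb 30.4 and 8.09 TPM. Without the highest cell of each gate these were 45.4 and 10.6 TPM for Rela, 23.6 and 4.76 TPM for Nfkb1, and 16.2 and 5.81 TPM for Ikbkb. Of 10 inhibitor and feedback genes 5 passed and 3 were higher (median 1.69). Among them Zfp36, whose product degrades cytokine mRNAs, was at 396 and 122 TPM, and Nfkbiz at 84 and 20.7 TPM, or 46.1 and 11.9 TPM without the highest cells.

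Of 40 NF-kB targets 10 passed for CD11b+ over Ly6g high, 5 higher and 1 lower (median 1.06), a share near the 44.5% of all genes. The stress phosphatase regulator gene Ppp1r15a was at 38 and 2.22 TPM, and 1 cell gave most of the latter, which was 0.206 TPM without it. Ppp1r15a passed the filter only through CD11b+, which by itself favours a higher value there. The chemokine gene Ccl9 was at 56.8 and 4.73 TPM, and the Ly6g high value was 0.153 TPM without Mono cell 77. Of 13 chemokine ligands Ccl3 and Ccl9 passed the filter, both through CD11b+ alone, which by itself favours a higher value there. Of 8 chemokine receptors 2 passed. Cxcr2 was at 128 and 32.6 TPM, but at 28.5 and 26.2 TPM without the highest cells, of which Myelo-3 cell 13 held 4012 TPM, and Cxcr4 was at 24.3 and 23.9 TPM. Against Ly6g low, 2 of 5 subunit and kinase genes were higher and 1 lower, 3 of 5 inhibitors were higher, and 8 of 15 targets were higher and 2 lower. The medians were 0.88, 1.65 and 1.09, where all genes had 30.3% higher and a median of 0.48. For Ly6g high over Ly6g low, 1 of 4 subunit genes was higher and none of 4 inhibitors was 2-fold apart, and of 10 targets 1 was higher and 4 lower, beside 7.96% higher and 23.7% lower among all genes. In Myelo-2 cells alone, of 8 targets that passed against Ly6g low 1 was higher and 4 lower (median -1.55, all genes -0.07). Against Ly6g high 1 of 6 was higher and 3 lower (median -0.77, all genes 0.07). No subunit or kinase gene of 3 was higher against either gate, and 1 was lower against Ly6g high. Of 4 inhibitors 2 were higher against each gate. Among all genes 17% were higher and 23.4% lower against Ly6g low, and 23.2% and 19.8% against Ly6g high.

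Of 16 genes for Toll-like receptors and their adaptors 6 passed against Ly6g high, 4 of them higher (median 2.20, with 44.5% and 0.83 for all genes). All 6 that passed against Ly6g low were higher (median 1.37, with 30.3% and 0.48 for all genes). Cd14, the lipopolysaccharide co-receptor, averaged 78.3 TPM in CD11b+ and 4.37 in Ly6g high, or 63.2 and 0.974 TPM without the highest cells. The adaptor gene Myd88 was at 138 and 25.3 TPM, or 85.5 and 12.8 TPM without them. Against Ly6g high Myd88 passed the filter only through CD11b+ (37.5% of cells, against 23.9%), which by itself favours a higher value there. In the interleukin-1 list 1 of 2 genes that passed was higher against Ly6g high. Against Ly6g low none of 3 was higher and 1 was lower (7.83% of all genes were), Casp1, at 9.35 and 59 TPM. In the list of Cd69 and the sphingosine-1-phosphate receptors, 3 genes passed against Ly6g high. Cd69 was higher, S1pr4 was lower at 4.41 and 27.2 TPM, and the transcription factor gene Klf2 was at 63.1 and 66.1 TPM.

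Immediate early genes are switched on within minutes of a stimulus, and cell isolation itself is a known stimulus. Of 18 immediate early genes 13 passed against each Ly6g gate. Against Ly6g high 9 were higher and none lower (median 1.78, with 44.5% higher and 0.83 for all genes), and against Ly6g low 10 were higher and none lower (median 1.63, with 30.3% and 0.48). A list of 20 genes known to respond to tissue dissociation shares many of these and holds Ier3 and Nfkbia. In it 13 of 17 that passed were higher against Ly6g high (median 1.97) and 15 of 18 against Ly6g low (median 1.70). Dusp1, a phosphatase gene in both lists, averaged 573 TPM in CD11b+ and 56.2 in Ly6g high. Egr1 was at 698 and 80.8 TPM, or 509 and 48.8 TPM without the highest cells. In Myelo-2 cells alone, 1 of 10 immediate early genes was higher in CD11b+ than in Ly6g low (median 0.04, all genes -0.07) and 5 of 10 were higher than in Ly6g high (median 1.0, all genes 0.07). The dissociation list gave 2 higher and 1 lower of 14 against Ly6g low (median 0.10) and 5 higher of 13 against Ly6g high (median 0.67). Among all genes in Myelo-2 cells, 17% were higher and 23.4% lower against Ly6g low. Against Ly6g high these shares were 23.2% and 19.8%. The part of handling in the levels of Cd69, Ccl3 and the other genes was not tested.

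The genes whose log2(TPM + 1) was most like each gene over all cells were taken among 6602 genes detected in at least 13 cells. For Cd69 they included Slc25a4 (r = 0.61), Apex1 (0.60), Hspa9 (0.59) and Prdx2 (0.57), and for Ccl3 they were Lonp1 (0.59), Cd93 (0.57), F13a1 (0.56), Zeb2 (0.56) and Pfdn4 (0.53). Those of Ccl4 were Gcsh (0.70), Ptrh2 (0.66), 2310039H08Rik (0.62), Apex1 (0.62) and Chchd4 (0.62), with only 8 cells holding Ccl4. Ier3 was most like Apobec3 and Chordc1 (both 0.53) and Smyd3, C330006A16Rik and Fam60a (all 0.52). For Nfkbia the highest was Cd81 at 0.36, followed by Ssr3, Rgcc, Dnajc19 and Sept2 at 0.35 to 0.33. None of the lists named another gene of the set. Those of Il1b (Alyref2, Hist1h2bf, Rnft1, Rdh1 and Crk) rested on 1 cell. All such values share the depth of the cell, and no p is given.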

How the data were processed

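Each deposited sample was 1 cell. The authors deposited a table of log2(TPM + 1) values for 23946 genes; that unit was read from the values, because TPM summed to between 999633 and 1005383 in each cell. The submitters' processing notes name RSEM, Bowtie2 and the build mm9; for the versions and the annotation, nothing was stated in the sources used here. Class names (11 in all) came from the cell annotation that the authors deposited, and how they were made is not stated either. TPM keep no read depth, so the number of detected genes stood in for depth.

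The log2 values were turned back into TPM and rounded to the decimals RSEM prints. Gate means, log2 ratios with 1 TPM added, and shares of cells with exact (Clopper-Pearson) 95% intervals were computed. The tools were Python 3.11.15, pandas 2.3.3, numpy 2.4.6 and scipy 1.17.1. Only the step that makes the ratios was checked, on Ly6g low cells drawn at random with fold changes planted in them. A count of 0 was given an upper limit of 3 cells of the total. No doublets were called. Alternatives covered the 1 TPM added, the mean, single cells, depth, class, granule genes and the filter; leaving out HSCP-2, Eryth, Multi-Lin and MDP cells was added after seeing the data. The 6 genes and all lists were chosen with earlier results of these data known. Named genes were the 6 genes, for each the 5 genes with the highest correlation (predicted, ribosomal and mitochondrial genes aside), per list up to 3 genes whose ratios lay farthest out on the side of its median, Ccr1, Il1rn and the gate genes (some genes that the rule names are not reported here); further names are marked in the text or come from the marker lists. Cells were named where 1 cell gave over 25% of a gate sum or held 5 genes; others were singled out after their values were seen.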

Additional observations from a re-analysis of the deposited data

How the results depend on the processing

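The number of genes of the set at least 2-fold apart was 2 for CD11b+ over Ly6g high, 3 for CD11b+ over Ly6g low and 1 for Ly6g high over Ly6g low. For the first it became 1 in Myelo-2 cells only, 5 with no filter and 4 with a filter at 10% of cells. For the second it became 1 in Myelo-2 cells only and 5 with no filter. For the third it became 2 when log2 values were averaged, 0 for cells of 1500 to 3000 genes, in Myelo classes and in Myelo-2 cells, 4 with no filter and 2 with the filter at 10%. The share of cells with at least 3 genes (14.6% in Ly6g low, 32.5% in CD11b+) became 2.44% and 17.5% with detection at 100 TPM and 4% and 14.3% in cells with 1500 to 3000 genes. In CD11b+ it was also 9.09% in Myelo classes and 14.3% in Myelo-2 cells. Fewer cells or another filter entered these counts by construction. The other 46 recomputed counts and shares stayed within 1.5 times or within the interval, and no called ratio changed sign. An equal count did not mean the same genes. In Myelo classes Ccl3 no longer passed the filter (18.2% of CD11b+ cells) and Nfkbia passed 2-fold, at 1.49 over Ly6g high and 1.28 over Ly6g low, where Ier3 no longer passed the filter either. Over Ly6g low, Ier3 missed 2-fold with 10 TPM added (0.99) and by averaged log2 values (0.27), and in cells with 1500 to 3000 genes Ier3 fell out of the filter and Nfkbia came in at 1.08. Ratios of single genes moved by 1 or more on the log2 scale in 73 recomputations and by less in 143. Without the HSCP-2, Eryth, Multi-Lin and MDP cells, the CD11b+ share was 27.3%. No paired analysis was possible because the cell numbers only name cells and no test was made. With 1 sample per gate, the spread between animals cannot be seen, and genes held by few cells are limited by the number of cells.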
